A study of Mus musculus with 830 samples.

Results

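HM reporter cells are mouse endoderm cells whose genotype is Ngn3-GFP/GFP, which puts a green fluorescent protein reporter on both copies of Neurog3. They were chosen by their labels: all HM cells taken from embryos of 15, 18, 21 and 24 somites, the paired blocks of trunk tissue whose number gives the age of an early embryo. There were 167 such cells (16 at 15 somites, 17 at 18, 54 at 21 and 80 at 24) among 830 cells in the series and 171 HM cells in all. The other 4 HM cells came from 27 somites and were not used. The strain is C57BL/6XC3H at every stage, and no group received a treatment, so the 4 groups differ in their labels by somite number only. Cells from dissociated endoderm and gut were stained for the epithelial surface protein EpCAM, sorted as live cells and sequenced singly by Smart-seq3xpress, which reads whole transcripts of cells sorted into plates. The labels do not say whether GFP was part of the gate or which part of Neurog3 it replaces.

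Neurog3 (also called Ngn3) is a basic helix-loop-helix factor that is switched on in single epithelial cells of the pancreas and gut, where it starts endocrine differentiation and is then switched off. Notch signalling, through Hes1, holds neighbouring cells back from that step. In mice without Neurog3 function the pancreas forms no endocrine cells, while the progenitor epithelium with Pdx1 and Sox9 is made. In the window of 15 to 24 somites the gut tube is being patterned into foregut, midgut and hindgut and the first pancreatic bud is set aside.

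The labels name no embryo, so the cells of a stage were summed into 1 pool and a stage has 1 sample. Stage and embryo cannot be told apart here. The pools held 8299225 reads at 15 somites, 11530221 at 18, 38160316 at 21 and 52206255 at 24, and a median cell had 530558 to 688859 reads. There were 28 cells under 100000 reads, 18 of them at 21 somites, and a single read is worth over 10 CPM in each of them. The highest and median cells named below are therefore over the 139 cells with 100000 reads or more. Shares and counts of cells are over all cells unless stated. A gene can be missed in the shallow cells for want of reads. The shares at 21 somites, where 18 of 54 cells were shallow, are the most exposed to this. Levels are CPM, reads of a gene scaled to the total reads of the pool or cell, and unless stated 4 values in a row stand for 15, 18, 21 and 24 somites. CPM is not divided by gene length, so levels are compared between stages and not between genes. The 2 youngest pools also differ from the 2 oldest in the sex of the embryos: cells with Y-linked reads and no Xist (10 CPM as the limit for each) numbered 14 of 16, 12 of 17, 19 of 54 and 42 of 80, and cells with Xist and no Y-linked reads 0, 1, 23 and 28. With the cells that had Y-linked reads and no Xist alone, a selection chosen after seeing the data, all 24 one-way genes named below kept the sign of their slope.

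The epithelial label held in nearly all cells. Epcam was at 731, 704, 519.7 and 555 CPM, and 16, 15, 50 and 76 cells had 10 CPM or more. The keratin gene Krt8 was at 685, 1244, 870.3 and 788 CPM. Blood and endothelial markers were close to 0, with summed levels of 3.49 to 17.6 CPM for 10 blood genes and 9.48 to 28.4 CPM for 9 endothelial genes. Groups of cells with hepatic and yolk sac, neural or notochord markers are described below beside the results they move with.

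Neurog3 transcripts were found at each stage. The gene (chromosome 10, 62133090 to 62134763, plus strand, GRCm38) had 9.40, 8.41, 5.95 and 11.5 CPM, the last with a Poisson 95% interval of 10.6 to 12.5 CPM, which covers counting error only. Cells with 10 CPM or more made up 43.8%, 35.3%, 16.7% and 42.5% of the cells, and the highest cell of each stage had 31.0, 38.1, 57.9 and 42.0 CPM. The levels of the 4 pools lay within a factor of 2 of each other, and the fitted slope was -0.00 ± 0.11 log2 units per somite. Since the deleted part of the gene is not given, these reads do not check the genotype. Of the factors that act after Neurog3 in endocrine cells, Pax4 had 0, 0, 0.105 and 0.306 CPM and Fev, an early endocrine factor, had 2.17, 5.55, 0.550 and 0.249 CPM. Hes1, the Notch target that represses Neurog3, was broad, at 156, 118, 108 and 129.8 CPM and in 81.2%, 82.4%, 81.5% and 78.8% of cells. Sox9, which keeps progenitors in their state, had 266, 232, 161 and 226 CPM and was detected in 100.0%, 82.4%, 66.7% and 88.8% of cells. Among cells with Neurog3 at 10 CPM or more, Fev was found in 1 of 7, 0 of 6, 0 of 9 and 0 of 34 cells, and Sox9 in 7 of 7, 6 of 6, 7 of 9 and 33 of 34.

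No gene passed the test for a linear trend with somite number. Of 14398 genes tested with edgeR's quasi-likelihood test on the 4 pools (2 residual degrees of freedom), 0 were called higher and 0 lower at a Benjamini-Hochberg adjusted p under 0.05 (0.0% in each direction), and the lowest adjusted p was 0.999. At an unadjusted p under 0.05 there were 398 genes, 200 with a positive and 198 with a negative slope. DESeq2 on the same pools called 42 higher and 43 lower. Everything below is therefore given as levels, with slopes as fitted values that passed no threshold, and "higher" and "lower" compare pools. The pairs of stages have no test, since each stage is 1 pool.

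Between stages, 2-fold differences were frequent among all genes tested, which sets the background for each list. At 18 against 15 somites 16.3% of the genes were at least 2-fold higher and 17.3% at least 2-fold lower (on pooled CPM with 1 CPM added). For 21 against 18 somites the shares were 17.3% higher and 10.1% lower, and for 24 against 21 somites 9.79% higher and 4.81% lower. Over the whole window, 24 against 15 somites, 18.6% were higher and 5.62% lower. The pools differ in depth and in number of cells, and TMM scaling would move each log2 difference of 24 against 15 somites by -0.20; the median gene stood at 0.24 without that scaling.

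**Figure D1:**
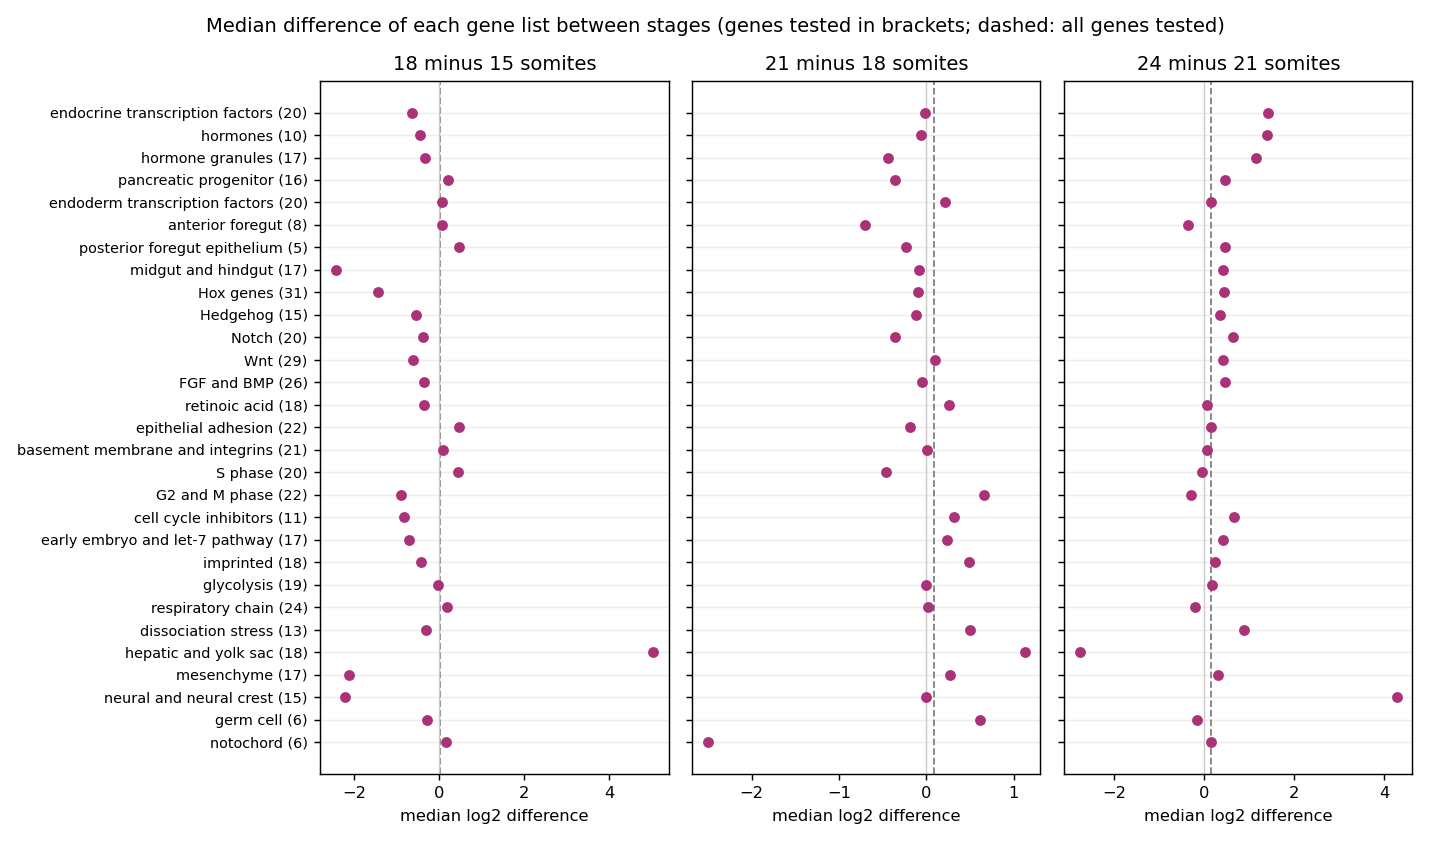
Median log2 difference in pooled CPM (1 CPM added) of each gene list for 18 minus 15, 21 minus 18 and 24 minus 21 somites, with the number of genes tested in brackets; the dashed line is the median of all 14398 genes. The hepatic and yolk sac list stands farthest right at 18 minus 15 somites (5.02) and the neural list at 24 minus 21 somites (4.28).

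The genes with the steepest one-way course were, on the higher side, led by the zinc finger gene Prdm1 and the channel subunit gene Kcne1l. Of 8295 genes with at least 20 CPM in their highest pool and 10 CPM in at least 20% of its cells, 450 were higher at each later stage and 172 lower at each later stage. Prdm1, a zinc finger repressor (Blimp1) that marks the fetal intestinal epithelium before its maturation, had 0.361, 11.0, 45.0 and 62.4 CPM. The gene lies on chromosome 10, 44437177 to 44528501, minus strand (GRCm38). It was at 10 CPM or more in 0, 2, 25 and 43 cells, so 15 somites held none of 16, which allows a share of up to 18.8% of cells. Kcne1l, an accessory subunit of potassium channels on the X chromosome, had 0, 0.173, 13.9 and 22.4 CPM and was at 10 CPM or more in 22 of 80 cells at 24 somites and in no cell at 15 and 18. In CPM, both differed most between 21 and 18 somites among neighbouring stages, and their fitted slopes were 0.70 ± 0.18 and 1.21 ± 0.31 log2 units per somite (SE).

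The other 10 genes on the higher side had varied roles. Bcl2, which blocks cell death, stood at 1.93, 28.4, 47.9 and 99.0 CPM. Ndrg2, a member of the N-myc downstream-regulated family, had 2.41, 5.72, 38.7 and 64.6 CPM and 62.5% of cells at 24 somites, against 6.25% at 15. Pth1r, the receptor of parathyroid hormone and its related peptide, had 4.22, 33.2, 68.1 and 112 CPM. The share of its reads from the top cell was 10.9% at 24 somites, so no single cell carried that pool. The tetraspanin Tspan8 had 0.964, 32.3, 61.3 and 66.6 CPM, most of its difference lying before 21 somites. The retinol dehydrogenase Rdh10, which makes retinal, had 3.01, 5.90, 35.1 and 40.8 CPM. Regucalcin (Rgn), a calcium-binding protein, had 3.61, 44.1, 72.0 and 104 CPM. Both were detected in more than 50% of cells at 24 somites. The proprotein convertase Pcsk5 had 2.89, 3.56, 11.8 and 40.4 CPM, the PHD finger gene Phf21b 0.482, 0.867, 5.48 and 20.7 CPM, the protease inhibitor A2m 1.08, 6.42, 11.8 and 23.4 CPM and AA986860 0.723, 25.9, 50.4 and 55.3 CPM. Each of these was under 4 CPM at 15 somites. The slopes were positive, between 0.16 and 1.23, in each alternative fit that tested the gene. Kcne1l was not tested without 21 somites or without 24 somites, and Kcne1l, Rdh10 and Pcsk5 were not tested without the 138 cells that had markers of another cell type. Such cells had 3 or more markers at 50 CPM of the hepatic and yolk sac, mesenchymal, neural, endothelial, blood or germ cell list. They made up 11 of 16, 12 of 17, 43 of 54 and 72 of 80 cells, so the pools without them were small. Of the 138, 122 passed on the hepatic and yolk sac list. Without those cells the slope of Prdm1 was 0.27 and that of Pth1r 0.24.

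On the lower side the steepest one-way slopes were those of Sall3, Lgals9 and Rab32. Sall3, a spalt family zinc finger gene, had 31.3, 0.781, 0.472 and 0.402 CPM, and all 4 cells with 10 CPM or more at 15 somites had at least 50 CPM. Lgals9, which encodes the sugar-binding protein galectin-9, had 78.2, 57.2, 13.0 and 2.82 CPM, with 7, 6, 8 and 5 cells at 10 CPM or more. Its slope of -0.58 ± 0.10 had the smallest p of the 24 genes (unadjusted edgeR p = 0.000602), but was -0.07 without cells that had markers of another cell type (unadjusted edgeR p = 0.886). Rab32, a small GTPase, had 51.0, 29.7, 6.45 and 4.21 CPM. These 3 genes were lowest at 24 somites. Sall3 was already under 1 CPM at 18 somites, whereas Lgals9 and Rab32 were spread over more than 1 step.

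The homeobox gene Msx1, a BMP target, had 30.7, 12.9, 6.11 and 3.26 CPM, and the TNF receptor family member Tnfrsf19, a Wnt target, had 25.2, 11.2, 5.21 and 3.01 CPM. Halr1, a long noncoding RNA beside the Hoxa cluster, had 88.1, 81.1, 20.4 and 18.2 CPM and was in 75.0%, 47.1%, 31.5% and 41.2% of cells. Runx1, known for blood formation, had 38.0, 15.4, 14.1 and 6.53 CPM. All 4 had reads at every stage. Entpd7, a nucleotide hydrolase, had 134, 38.6, 32.6 and 27.0 CPM, and its top cell gave many reads at 15 somites (883 CPM in that cell). The remaining 4 were Adamts17 with 22.1, 9.63, 6.00 and 2.95 CPM, Ptrhd1 with 46.0, 16.5, 12.7 and 8.49 CPM, Camkmt with 21.3, 20.7, 8.70 and 5.00 CPM and Irf2bpl with 26.4, 8.93, 6.60 and 6.09 CPM. None of these 4 was at 10 CPM or more in over 50.0% of the cells of a stage. Several of the 12 slopes differed without the 138 cells that had markers of another cell type, a selection that left small pools. Without those cells the slope was 0.26 for Adamts17, -0.05 for Halr1 and -0.09 for Irf2bpl, and Sall3 was not tested. The cause of these differences was not tested. Sall3 was also not tested without 21 somites or without 24 somites, and its slope was -0.17 without 15 somites.

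**Figure D2:**
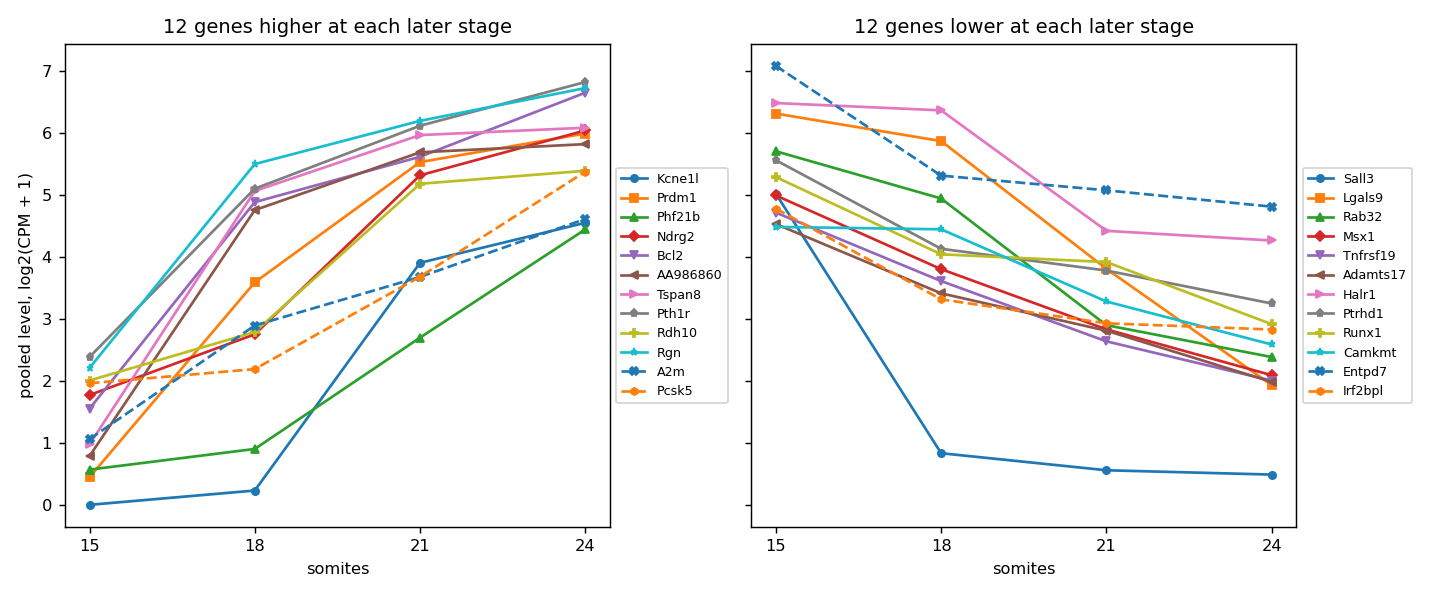
Pooled level, as log2(CPM + 1), of the 12 genes that were higher at each later stage (left) and the 12 that were lower (right), by somite number; each line is 1 gene and each point 1 pool. Prdm1 stands at 62.4 CPM at 24 somites, against 0.361 CPM at 15, and Lgals9 at 2.82 CPM, against 78.2 CPM.

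Genes of the pancreatic progenitor epithelium were present at every stage. Pdx1, the homeobox factor needed for the pancreas and duodenum, had 29.8, 47.1, 20.3 and 38.6 CPM and was in 56.2%, 29.4%, 20.4% and 30.0% of cells. Its highest cells had 164, 214, 372 and 312 CPM, so the stages overlapped. Nkx6-2, a homeobox gene of early pancreatic progenitors, had 18.7, 30.9, 16.7 and 45.4 CPM. Mnx1, needed for the dorsal pancreatic bud, had 34.0, 16.0, 8.33 and 11.8 CPM and its share of cells was highest at 15 somites (75.0%, 41.2%, 20.4% and 30.0%). Prox1, which pancreatic and hepatic progenitors use, had 59.5, 55.6, 33.1 and 69.6 CPM. Slopes of Pdx1, Nkx6-2 and Prox1 were near 0, at -0.02 ± 0.08, 0.09 ± 0.08 and -0.02 ± 0.06.

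A pair of progenitor genes was higher at the later stages. Onecut2, a cut homeobox factor of the endoderm, had 51.6, 57.5, 115 and 259.5 CPM and a slope of 0.24 ± 0.05 (unadjusted p = 0.00162, adjusted p = 0.999, edgeR). At 24 somites the median cell had 142 CPM, against 25.7 CPM at 15. Nr5a2, a nuclear receptor used in exocrine cells, had 5.54, 10.9, 17.6 and 32.9 CPM and was in 42 of 80 cells at 24 somites, against 3 of 16 at 15. Ptf1a, the factor of pancreatic and later acinar progenitors, had 0, 2.17, 0.288 and 4.00 CPM. It reached 10 CPM in 10 of 80 cells at 24 somites and in 1 of the 87 younger cells, and all 10 also had Pdx1. The acinar enzyme gene Cpa1 had 0, 0, 0 and 10.5 CPM, 76.1% of it from 1 cell. Of the 16 genes tested in the pancreatic progenitor list, 6 were at least 2-fold higher at 24 than at 15 somites (37.5%, against 18.6% of all genes). Another 1 was at least 2-fold lower (6.25%, against 5.62%). The median slope was 0.01 in the list and 0.00 over all genes.

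Cells with Pdx1 had Nkx6-2, Prox1 and Onecut2 more often than the remaining cells of their stage. Nkx6-2 was at 10 CPM or more in 7 of 9, 4 of 5, 9 of 11 and 23 of 24 cells with Pdx1, and in 0 of 7, 1 of 12, 3 of 43 and 6 of 56 of the others. Prox1 was found in 8 of 9, 5 of 5, 10 of 11 and 23 of 24 cells with Pdx1. In the others it was in 3 of 7, 3 of 12, 10 of 43 and 28 of 56. Onecut2 was found in 6 of 9, 3 of 5, 11 of 11 and 24 of 24 cells with Pdx1. In the others it was in 3 of 7, 4 of 12, 15 of 43 and 31 of 56. At 15 somites Mnx1 (7 of 9 with Pdx1, 5 of 7 without) and Sox9 (9 of 9 and 7 of 7) differed little. At 18, 21 and 24 somites Mnx1 was in 5 of 5, 6 of 11 and 13 of 24 cells with Pdx1, against 2 of 12, 5 of 43 and 11 of 56 of the others. Sox9 was in 5 of 5, 9 of 11 and 24 of 24, against 9 of 12, 27 of 43 and 47 of 56. The pairing of Pdx1 with Nkx6-2 was thus seen at all 4 stages, and that with Ptf1a at 24 somites alone (10 of 24 cells with Pdx1). Smoc2, a secreted matricellular protein gene, was in 7 of 9, 5 of 5, 7 of 11 and 14 of 24 cells with Pdx1, and in 4 of 7, 2 of 12, 6 of 43 and 4 of 56 of the others. Its pooled level was 114, 158, 40.1 and 15.4 CPM, with a slope of -0.40 ± 0.10. These groups of cells and their limits were chosen after values were seen, cells of a stage are not replicates, and no test was made between them.

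A different set of genes marked cells with Cdx2, Prdm1 and Osr2. Osr2, an odd-skipped zinc finger gene, had no read in the 33 cells of 15 and 18 somites, and 7.65 and 19.4 CPM at 21 and 24 somites. It was at 10 CPM or more in 6 of 54 cells at 21 somites and 20 of 80 at 24. All 6 and all 20 had Prdm1, Cdx2, Shh and Epcam at 10 CPM or more. Of the cells without Osr2, Prdm1 was found in 19 of 48 at 21 somites and 23 of 60 at 24. Pdx1 was found in 0 of 6 and 1 of 20 cells with Osr2, and Nkx6-2 in none of the 26, which allows a share of up to 11.5%. Cells with Osr2 and cells with Pdx1 were thus almost separate groups within these stages.

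The companions of Osr2 appeared at different stages. Sycn, which encodes the zymogen granule protein syncollin, had 0, 25.4, 21.5 and 20.9 CPM and was in 0, 3, 14 and 25 cells, so it preceded Osr2 in this sample by 1 stage. It was in 5 of 6 and 12 of 20 cells with Osr2. Prdm1 was in 2 of 17 cells at 18 somites, before any read of Osr2, and Sycn was in 0 of these 2. In 1 of the 2 cells the hepatic and yolk sac markers summed to 100716 CPM. The other had Smoc2 at 212 CPM and Cdx2 at 6.19 CPM. At 21 somites some cells with high sums of those markers also had Prdm1 at 10 CPM or more, and others did not. Pth1r was in 6 of 6 and 19 of 20 cells with Osr2, and Tspan8 in 6 of 6 and 17 of 20. Smoc2 was in 1 of 6 and 1 of 20. At 0 of 17 cells the share of Osr2 at 18 somites may still be up to 17.6%, which is above the 11.1% seen at 21 somites, so the first appearance cannot be placed between these stages.

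**Figure D3:**
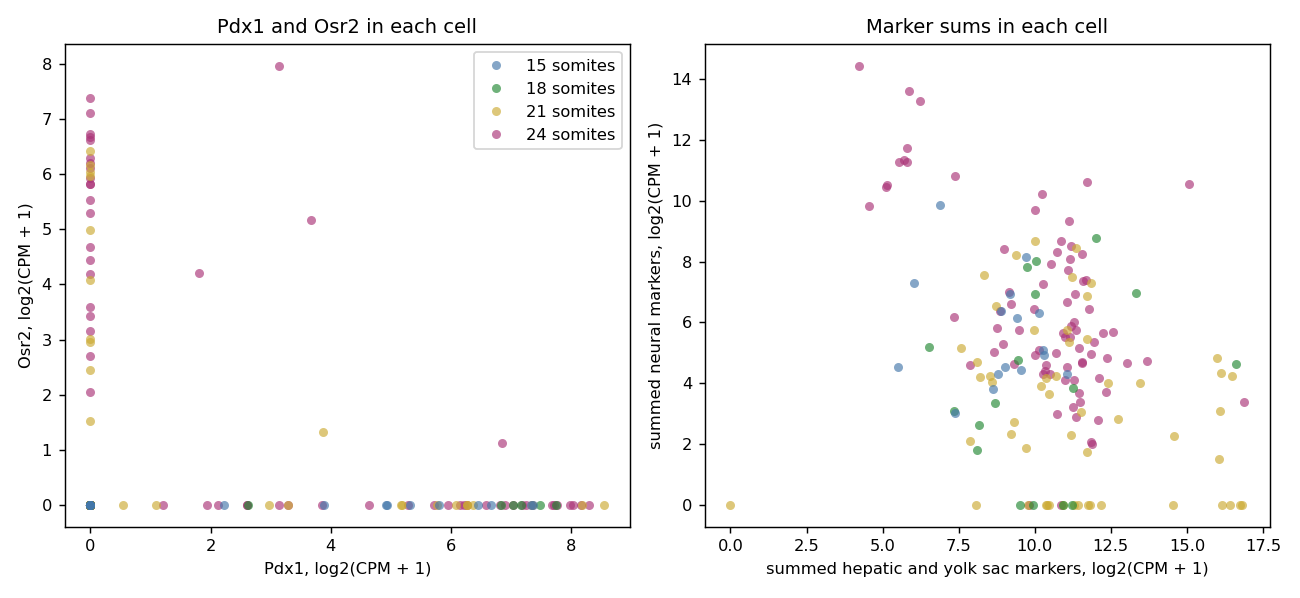
Left, Pdx1 against Osr2 in each of the 167 cells as log2(CPM + 1); right, the summed CPM of 19 hepatic and yolk sac markers against that of 19 neural and neural crest markers in the same cells. Points are cells and colours are stages. Of 20 cells with Osr2 at 10 CPM or more at 24 somites 1 has Pdx1, and the 8 cells with the highest neural sums, all at 1808 CPM or more, have hepatic and yolk sac sums of 17.7 to 166 CPM, while the next 2 (1560 and 1514 CPM) have 3403 and 34540 CPM.

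Cdx2, the caudal factor that specifies intestine, had 86.8, 35.7, 83.8 and 139 CPM and was in 75.0%, 29.4%, 68.5% and 67.5% of cells, with the lowest level at 18 somites. Shh, the hedgehog ligand of the gut epithelium, had 65.5, 44.8, 41.2 and 52.6 CPM. At 24 somites Shh was in 40 of 54 cells with Cdx2 and in 0 of 26 without, and at 15 somites in 6 of 12 with and 2 of 4 without. Cdx4, which marks the most posterior gut and tail, had 62.4, 1.13, 0.734 and 1.15 CPM, and 3 cells of 15 somites held it at 50 CPM or more. The levels of Cdx2 and Cdx4 therefore had different courses, the one highest and the other near its lowest at 24 somites.

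Hox genes, which give positions along the body axis, had their highest sum at 15 somites. The 35 genes of the list together had 373, 149, 59.3 and 116 CPM. Of the 31 tested, 15 were at least 2-fold lower and 0 higher at 24 than at 15 somites (48.4% lower, against 5.62% of all genes), and 25 had a negative slope, with a median of -0.29 per somite. At the step of 18 against 15 somites 20 of 31 were at least 2-fold lower (64.5%, against 17.3% of all genes). At 24 against 21 somites 11 were higher (35.5%, against 9.79% of all genes) and 0 lower, against 4.81%. Hoxa9 had 39.8, 29.2, 1.99 and 3.52 CPM and Hoxc10 41.9, 0.867, 0.996 and 0.881 CPM, while the 3′ gene Hoxc4 had 30.8, 20.8, 16.5 and 18.0 CPM.

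Few cells carried the posterior Hox reads. At 18 somites 1 cell gave 97.6% of the reads of Hoxa9 and 97.9% of those of Hoxa10, and at 15 somites the top cell gave 31.5% and 45.3%. Hoxa9 was at 10 CPM or more in 4, 1, 3 and 6 cells. By contrast Hoxc4 was in 10, 9, 19 and 39 cells. Over all cells, those under 100000 reads included, the median cell had a Hox sum of 111, 38.9, 66.8 and 62.2 CPM.

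A group of genes of the early embryo was highest at 15 somites. Sall4, a spalt factor of pluripotent and progenitor cells, had 2655, 783, 355 and 609 CPM, and the median cell had 2461, 568, 311 and 452 CPM. Of the cells with 100000 reads or more, the highest at 21 somites had 624 CPM and the lowest at 15 somites 693 CPM, so these 2 stages did not overlap, while 18 and 24 somites overlapped with both. The slope was -0.26 ± 0.07. Trim71 (Lin41), a target of let-7, had 855, 298, 353 and 417 CPM. Lin28a, which blocks let-7, had 280.0, 172, 262 and 132 CPM. Hmga1, a chromatin protein, had 177, 122, 125 and 113 CPM, whereas its relative Hmga2 had 257, 167, 299 and 442 CPM and ended highest. Of 17 genes tested in this list 12 had a negative slope and 3 were at least 2-fold lower at 24 than at 15 somites (17.6%, against 5.62% of all genes). The largest difference of Sall4 between neighbouring stages was that of 18 against 15 somites.

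**Figure D4:**
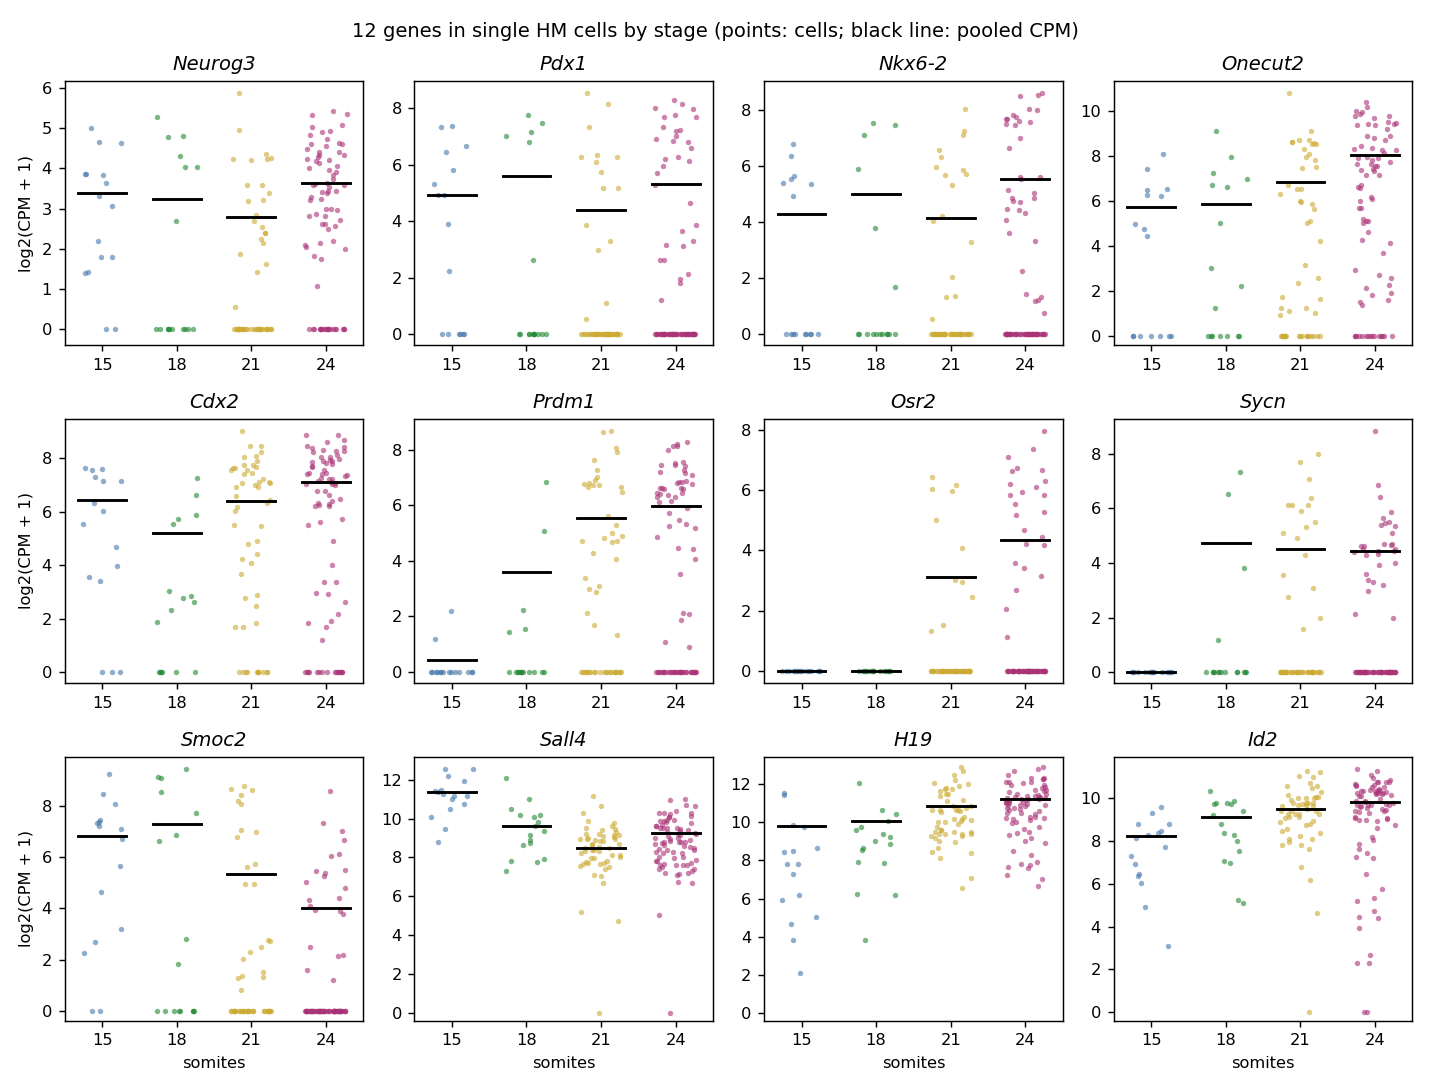
Levels of 12 genes in single HM cells by somite number, as log2(CPM + 1); each point is a cell and the black line is the pooled level of the stage. Osr2 has no read at 15 and 18 somites, Sall4 has its highest cells at 15 somites, and Neurog3, Pdx1 and Nkx6-2 overlap between stages.

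Genes of the liver and the visceral endoderm of the yolk sac were high at 18 and 21 somites. The summed level of 19 such genes was 591, 13799, 25371 and 4654 CPM. Apoa1, the main apolipoprotein of high-density lipoprotein, had 3.25, 2297, 3800.2 and 443 CPM, and Ttr, the transthyretin gene, 149, 3804, 7072 and 698 CPM. Alpha-fetoprotein (Afp) had 65.2, 2214, 3157 and 1016 CPM and Apoc2 0, 651, 449.7 and 62.5 CPM. Apob had 0.482, 672, 879 and 129 CPM. At 18 against 15 somites 16 of the 18 genes tested were at least 2-fold higher, and at 24 against 21 somites 16 were at least 2-fold lower, shares of 88.9% each beside 16.3% and 4.81% of all genes. By the same limits on level and share of cells as for the one-way genes, Apoc2, Apoa1 and Apob had the largest differences at the first step, followed by the galectin Lgals2 (0.241, 147, 352 and 93.8 CPM) and the calcium-binding S100g (7.23, 634, 806 and 207 CPM).

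A few cells held most of these reads. Cells with 8 or more of the 19 markers at 50 CPM numbered 0, 2, 12 and 5. At 18 somites the top cell gave 97.7% of the Apoa1 reads, and at 24 somites 89.6%. Without those 19 cells Apoa1 stood at 3.25, 58.3, 33.8 and 26.1 CPM and Afp at 65.2, 142, 165 and 184 CPM, and the summed list at 591, 1083, 2207 and 1936 CPM. The sum was thus lowest at 15 somites with and without these cells. Rbp4, the retinol carrier, was 275, 326, 1136 and 1136 CPM without them, against 275, 1916, 4211 and 1551 CPM with them.

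The cells with the most Apoa1 had other genes of the yolk sac endoderm. Among the 11 cells at 21 somites with Apoa1 at 1000 CPM or more, the endocytic receptor gene Cubn was in 10, its partner Amn in 10 and the X-linked homeobox gene Rhox5 in 11, against 9, 4 and 4 of the 43 other cells. Slc2a2, a glucose transporter gene, was in 9 of the 11 and in 2 of 43. Alb and Ahsg, plasma protein genes of hepatocytes, were in 0 of the 11, and so were the hepatic factors Prox1 and Cebpa, which allows a share of up to 27.3% of such cells. Epcam was in 9 of the 11. Phlda2, an imprinted gene, had 8.19, 148, 328 and 3.35 CPM, Slc2a2 0.602, 47.9, 85.4 and 3.03 CPM, Soat2 1.45, 24.9, 64.9 and 3.22 CPM and Slc13a4 0.602, 53.4, 125 and 7.20 CPM, and these were among the largest differences on the lower side at 24 against 21 somites. All 4 were highest at 21 somites, where most of the marked cells lay.

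Neuronal genes were high at 24 somites. Tubb3, the neuronal tubulin, had 28.4, 5.38, 0.708 and 439.6 CPM, the neurofilament gene Nefm 25.3, 0.347, 1.86 and 318 CPM and Stmn2, a regulator of neuronal microtubules, 0.241, 0, 1.07 and 94.1 CPM. Neurod1, which acts in neurons and in endocrine cells, had 9.40, 0.347, 0.786 and 201 CPM. Crabp1, a retinoic acid carrier, had 19.6, 9.54, 8.23 and 304 CPM. These 5 were the largest differences on the higher side at 24 against 21 somites among genes at 20 CPM or more in their highest pool and found in 20% of its cells. Of 15 tested neural and neural crest genes 14 were at least 2-fold higher at that step (93.3%, against 9.79% of all genes). The summed level of the 19 listed genes was 178, 44.7, 16.9 and 1240 CPM, and Foxd3, Sox10 and Tfap2b, which define neural crest, were at 0 to 0.361 CPM.

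The cells with Neurod1 gave most of this signal, and 1 top cell gave 57.1% of the Tubb3 reads, 64.7% of the Nefm reads and 73.0% of the Crabp1 reads at 24 somites. At 24 somites 12 cells had Neurod1 at 50 CPM or more, and without them the pool had 2.03 CPM of Neurod1, 10.5 of Tubb3, 12.3 of Nefm, 2.77 of Crabp1 and 102 of the summed list. Stmn2 stood at 48.1 CPM without them, and 19 of the 68 other cells had it, against 3 of the 12. Neurog1, the proneural factor of sensory neurons, was in 11 of the 12 and in 1 of 68. Isl1 was in 12 and 10, Elavl4 in 11 and 3, Insm1 in 10 and 9, and St18 in 8 and 1. Of these, Isl1, Insm1 and St18 are shared by neurons and endocrine cells.

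Epithelial and endocrine markers were each found in some of those 12 cells. Epcam was in 9, Krt8 in 10 and Cdh1 in 3, against 67, 68 and 65 of the 68 others. Pdx1 and Fev were in none of the 12, which allows a share of up to 25.0%, and Pax4 was in 1. Neurog3 was in 4 of the 12 and in 30 of the 68. The granule genes Chga and Chgb were in 6 and 7 of the 12 and in 9 and 6 of the 68. Glucagon (Gcg) was in 7 of 12 and 15 of 68. Of 20 tested endocrine transcription factors, 12 were at least 2-fold higher at 24 than at 21 somites (60.0%, against 9.79% of all genes). At 24 against 15 somites 8 were at least 2-fold higher (40.0%, against 18.6%) and 2 lower (10.0%, against 5.62%). At 18 against 15 somites 8 were at least 2-fold lower (40.0%, against 17.3%) and 3 higher (15.0%, against 16.3%). The levels at 24 somites include the same 12 cells. Without them Insm1 had 10.6 CPM, against 27.9 CPM with them, and Isl1 10.5 CPM, against 62.7 CPM.

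**Figure D5:**
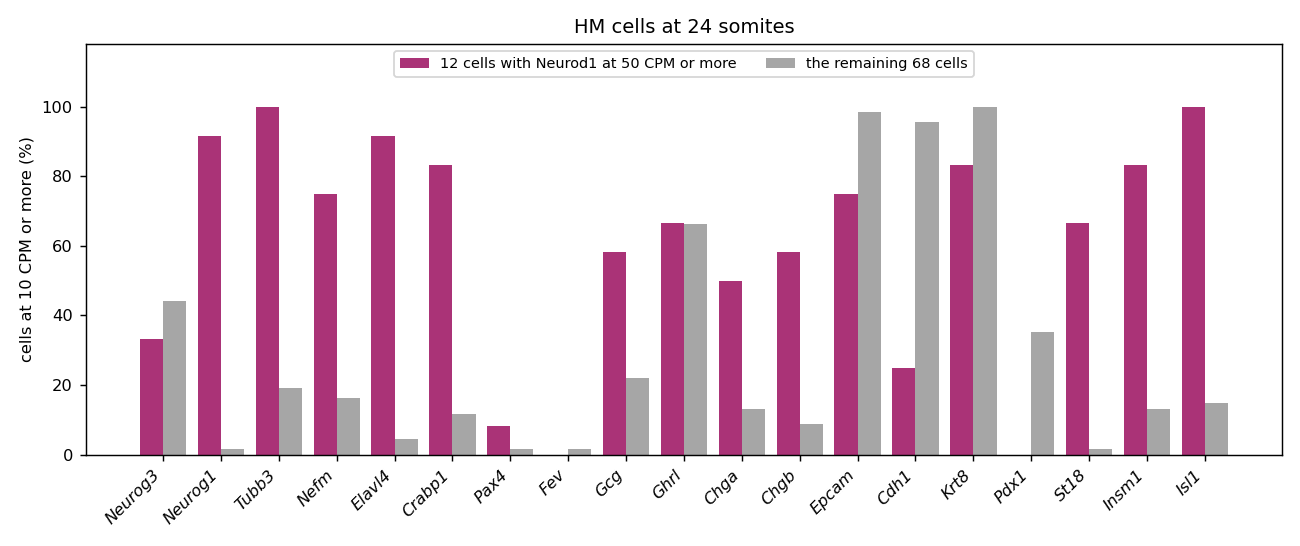
Share of HM cells at 24 somites with 10 CPM or more of each gene, in the 12 cells with Neurod1 at 50 CPM or more (coloured bars) and in the remaining 68 cells (grey bars). Neurog1, Elavl4 and Isl1 stand in 11, 11 and 12 of the 12 cells, and Pdx1 in none of them.

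Hormone genes were detected in many cells at 15 somites. Ghrelin (Ghrl) had 279.8, 451, 42.6 and 190.3 CPM and was in 16, 8, 27 and 53 cells. At 15 somites all 16 cells had it, the median being 65.2 CPM and the top cell 1555 CPM, and at 24 somites 1 cell gave 62.7% of its reads. Peptide YY (Pyy) had 73.3, 27.1, 3.07 and 15.4 CPM and glucagon 20.4, 1.82, 1.57 and 7.70 CPM. Insulin 2 (Ins2) had 21.3, 0, 0 and 19.3 CPM, with 9 of 16 cells at 15 somites and 12 of 80 at 24, and no read at 18 and 21. A single cell held 67.2% of the Ins2 reads at 24 somites. Somatostatin had no read before 24 somites. At 18 against 15 somites 4 of the 10 hormone genes tested were at least 2-fold lower (40.0%, against 17.3% of all genes), and at 24 against 21 somites 7 were higher (70.0%, against 9.79%).

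Ghrl was found with and without Pdx1. In the 9 cells with Pdx1 at 15 somites Ghrl was in 9, and in the 7 without Pdx1 it was in 7. Gcg was in 50.0% of the 16 cells, while Chga was in 3, Pax6 in 2 and Pax4 in none. With each of the 139 deeper cells thinned to 100000 reads, the share of cells with a Ghrl read was 80.0%, 53.3%, 47.2% and 76.7%, and that with a Gcg read 66.7%, 13.3%, 13.9% and 32.9%. Both shares were higher at 15 somites than at 18 and 21.

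Some signalling genes had their highest level in the youngest pool. Bmp4, a BMP ligand, had 154, 7.98, 1.76 and 11.9 CPM, with 7 of 16 cells at 50 CPM or more at 15 somites. Id2, a BMP target and inhibitor of helix-loop-helix factors, ran the other way with 297, 553, 711 and 914 CPM and a median cell of 284, 327, 606 and 814 CPM. Its slope of 0.15 ± 0.04 per somite came with 93.8%, 100.0%, 98.1% and 93.8% of cells at 10 CPM or more, so the stages differed in the level per cell and little in the share of cells. Fgfr4, an FGF receptor of the endoderm, had 21.0, 30.4, 55.5 and 73.7 CPM. Of 26 tested FGF and BMP genes 9 were at least 2-fold higher (34.6%, against 18.6% of all genes) and 6 lower (23.1%, against 5.62%) at 24 than at 15 somites.

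Wnt genes were more often lower at 24 somites, and 1 cell gave 87.9% of the Rspo3 reads and 59.3% of the Axin2 reads at 15 somites. Lef1, which carries the Wnt signal to genes, had 44.0, 3.21, 1.47 and 2.38 CPM, the antagonist Sfrp1 67.7, 20.0, 4.95 and 12.5 CPM and the target Axin2 35.5, 19.9, 6.34 and 17.9 CPM. Rspo3, a secreted enhancer of Wnt signalling, had 31.8, 3.21, 0.393 and 0.900 CPM. The receptor Fzd5 went against them with 23.6, 12.9, 55.5 and 85.7 CPM. In the list of 29 tested genes 2 were at least 2-fold higher (6.90%, beside 18.6% of all genes) and 10 lower (34.5%, beside 5.62%) at 24 than at 15 somites.

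Of the hedgehog genes, Ptch1, the receptor and target, had 44.0, 20.9, 12.1 and 15.7 CPM and Gli3 82.9, 23.2, 28.0 and 34.6 CPM. At 24 against 15 somites 4 of 15 tested hedgehog genes were at least 2-fold lower (26.7%, against 5.62% of all genes) and 1 higher (6.67%, against 18.6%). The Notch ligand Dll1 had 36.6, 39.4, 11.7 and 13.4 CPM, Jag1 39.5, 9.63, 7.18 and 19.5 CPM and the receptor Notch2 503, 262, 237 and 353 CPM. Of 20 tested Notch genes 7 were at least 2-fold higher (35.0%, against 18.6% of all genes) and 2 lower (10.0%, against 5.62%) at 24 than at 15 somites. Of the same genes 11 had a positive and 9 a negative slope. Mfng, a modifier of Notch, had 4.34, 11.2, 2.20 and 51.8 CPM.

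Of the retinoic acid genes, Aldh1a2, which makes retinoic acid, had 2.17, 2.60, 2.86 and 34.7 CPM and was in 1, 1, 6 and 32 cells, and Rdh10, one step upstream, was given above. Cyp26a1, which breaks retinoic acid down, had 15.7, 5.90, 3.64 and 2.45 CPM. At 24 against 15 somites 6 of 18 tested genes were at least 2-fold higher (33.3%, against 18.6% of all genes) and 2 lower (11.1%, against 5.62%). There were 10 positive and 8 negative slopes, and the median log2 difference of 24 against 15 somites was 0.10, beside 0.24 over all genes.

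Genes of the anterior foregut were lower at 24 than at 15 somites: Sox2 had 13.6, 22.0, 7.78 and 7.89 CPM, Osr1 28.6, 55.8, 17.8 and 10.7 CPM and Pax9 15.3, 3.47, 3.01 and 2.93 CPM. Of the 8 tested 4 were at least 2-fold lower at 24 than at 15 somites (50.0%, against 5.62% of all genes) and 0 higher, against 18.6%. Of 20 tested broad endoderm factors 4 were at least 2-fold higher at 24 than at 15 somites (20.0%, against 18.6% of all genes). Another 1 was at least 2-fold lower (5.0%, against 5.62%), so both shares were near those of all genes. Foxa2 stood at 77.7, 105, 46.3 and 61.3 CPM and Gata4 at 65.1, 78.4, 86.2 and 92.8 CPM. Hnf4a had 7.83, 25.8, 88.4 and 24.4 CPM, and 16.9 CPM at 21 somites without the cells rich in hepatic and yolk sac markers.

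Cell cycle genes had mostly small negative slopes. Of 20 tested S phase genes 19 had a negative slope, with a median of -0.05 per somite, and of 22 genes of G2 and M phase also 19, with a median of -0.04, where 6955 of all 14398 genes had one. Uhrf1, which keeps DNA methylation through replication, had 263, 203, 145 and 140.3 CPM, and Mcm4, part of the replicative helicase, 200.02, 198, 106 and 123 CPM. The mitotic kinase Aurka had 212, 81.9, 105 and 108 CPM. At 24 against 15 somites 1 of 20 and 1 of 22 were at least 2-fold lower (5.0% and 4.55%, against 5.62% of all genes). Of the genes of G2 and M phase, 9 of 22 were at least 2-fold lower at 18 against 15 somites (40.9%, against 17.3% of all genes), and 7 were higher at 21 against 18 (31.8%, against 17.3%). Among the inhibitors 4 of 11 were at least 2-fold higher (36.4%, against 18.6% of all genes) and 0 lower (against 5.62%) at 24 than at 15 somites.

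Imprinted and metabolic genes varied in both directions. H19, an imprinted noncoding RNA, had 877, 1052, 1857 and 2409 CPM with a median cell of 221, 457, 1122 and 2024 CPM, and at 15 and 18 somites 1 cell gave 48.8% and 50.9% of its reads. Its slope was 0.15 ± 0.04. Impact had 346, 269, 203 and 192 CPM. Mest, the maternally imprinted hydrolase gene, had 71.1, 1.13, 8.07 and 31.2 CPM. In glycolysis Pfkp had 42.2, 45.6, 75.1 and 148 CPM and a slope of 0.18 ± 0.05, and Eno1 had 2449, 1942, 1692 and 1729.6 CPM. Of 24 nuclear genes of the respiratory chain 23 had a negative slope, but none was 2-fold different between 24 and 15 somites and the median difference was -0.11 in log2, beside 0.24 over all genes.

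Few adhesion genes differed 2-fold between 24 and 15 somites. The claudin gene Cldn3 had 27.2, 45.8, 60.5 and 80.3 CPM and Tjp1, a tight junction scaffold, 71.8, 63.2, 90.0 and 126 CPM. Of 22 tested epithelial genes 3 were at least 2-fold higher (13.6%, against 18.6% of all genes) and 0 lower (against 5.62%) at 24 than at 15 somites. Among the 8295 genes with at least 20 CPM in the highest pool and 10 CPM in 20% of its cells, 11.0% were higher and 3.71% lower. The 13.6% was thus not below the share of those genes. In the basement membrane list Agrn had 104, 128, 228 and 207 CPM and Col4a2 181, 194, 118 and 106 CPM. Of 21 tested, 0 were at least 2-fold higher (against 18.6% of all genes) and 2 lower (9.52%, against 5.62%) at 24 than at 15 somites. Mesenchymal markers summed to 512, 131, 181 and 382 CPM. Col3a1, a fibrillar collagen gene, had 135, 0.173, 1.81 and 0.115 CPM, 70.7% of its reads at 15 somites from 1 cell, and Vim, which neural cells share, 127, 67.0, 121 and 296 CPM.

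Notochord genes T and Noto came almost wholly from single cells. T, the brachyury factor, had 117, 223, 0.524 and 0.670 CPM and Noto, which marks the node and notochord, 201, 58.7, 0 and 0 CPM. At 15 somites 1 cell gave 98.9% of the T reads and 99.6% of the Noto reads, and at 18 somites 1 cell gave 99.8% and 100%. The germ cell list gave 107, 158, 113 and 121 CPM, mainly from Kit and Ifitm3, which other cells also use. Genes of the response to dissociation summed to 284, 270, 272 and 509.7 CPM. Ier3 had 0.602, 0, 12.5 and 35.6 CPM and Dusp1 5.30, 1.21, 11.5 and 24.6 CPM, both highest at 24 somites, and the part of handling was not tested.

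The largest single steps, under the same limits, included genes with no place in the lists. At 18 against 15 somites the lower side held Col3a1, Fadd (63.3, 0.347, 21.7 and 17.4 CPM), an adaptor of death receptors, Gm29666 (41.8, 0, 4.77 and 16.3 CPM), 9130023H24Rik (81.8, 1.04, 14.3 and 44.8 CPM) and Mest. At 21 against 18 somites the higher side was led by Xist (1.69, 1.21, 55.9 and 66.2 CPM), which goes with the sex of the embryos, followed by Mtfp1 (3.86, 0, 24.6 and 11.1 CPM), Zc3hav1 (1.69, 1.04, 48.3 and 7.57 CPM), Hsd3b7 (0.482, 0.0867, 21.0 and 9.52 CPM) and Serpina1d (6.75, 0.781, 34.9 and 26.8 CPM), whose reads may be shared with near-identical Serpina1 copies. The lower side included Ghrl, Ncan (1.20, 29.9, 1.34 and 24.9 CPM), Th (4.10, 31.7, 2.23 and 5.21 CPM), the first enzyme of catecholamine synthesis, and Madd (5.54, 23.1, 1.83 and 10.8 CPM). Th was in 5 of 17 cells at 18 somites, and its top cell gave 32.2% of its reads.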

How the data were processed

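Single HM cells were sequenced with Smart-seq3xpress. The authors deposited whole-number read counts per gene and cell, and a table of TPM values of the same cells that the authors scaled to 1 sum per cell. HISAT2 2.1.0, Trimmomatic 0.39 and FastQC 0.11.9 are listed, with the builds GRCm38 and mm10, per the submitters' processing notes; which counter, annotation or strand setting made the counts, and whether molecular identifiers were collapsed, is not stated there. Gene positions come from GENCODE on GRCm38.

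The counts of all cells of a stage were summed into 1 pool and divided by the pool total for CPM. A slope per somite was fitted over the 4 pools with edgeR 4.0.16 (R 4.3.3, TMM, low-count filter, quasi-likelihood test with Benjamini-Hochberg adjustment, threshold 0.05). The same fit was run on simulated pools. Single cells were not simulated, so that run does not test the fit for genes whose reads come mostly from 1 cell. Pools carry Poisson and shares Clopper-Pearson 95% intervals, which cover counting error only. Since no gene was called, the named genes are, per direction, the 12 with the largest fitted slope among those moving one way at all steps (at least 20 CPM in the highest pool and 10 CPM in 20% of its cells), plus 5 per direction and step, further up to 3 of each list, by smallest p, and 20 landmarks; others were chosen after their values were seen. Some genes that the rule selects are not reported here. The HM cells and all lists were chosen with earlier results of these data known. All 167 cells entered the pools. Alternatives were DESeq2 1.42.0, limma 3.58.1 on CPM and on the deposited TPM, other scalings, filters, pseudocounts and cell selections.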

Additional observations from a re-analysis of the deposited data

How the results depend on the processing

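No stage trend was called in the edgeR fits with other scalings or filters, or in limma on CPM or TPM. DESeq2 called 42 genes higher and 43 lower, 15 of them among the genes named for their one-way course, and without 15 somites edgeR called 24 higher and 6 lower. With each stage left out in turn the counts ran from 0 to 24 higher and from 0 to 6 lower. Fits over 3 pools assume that each pool varies as the others do around the line. The cause of these differences was not tested. Among single genes, the slope of Adamts17 was 0.26 without cells with markers of other cell types, against -0.33 with them, and the other slopes kept their sign in each fit that tested the gene. Kcne1l, Sall3, Rdh10 and Pcsk5 were not tested without those cells, nor Kcne1l and Sall3 without 21 or without 24 somites. Adding 5 CPM in place of 1 CPM gave 1340 genes 2-fold higher and 1267 lower at 18 against 15 somites, 989 and 717 at 21 against 18, 506 and 352 at 24 against 21, and 1109 and 379 at 24 against 15. With genes at 20 CPM or more only, the counts were 1062 and 894, 679 and 590, 398 and 310, and 803 and 331, where fewer genes were tested. The share of 2-fold differences that were higher was 63.2% at 21 against 18 somites, and 53.5% among genes at 20 CPM or more. At 24 against 21 somites it was 67.1%, and 56.2% among those genes. Without the cells that had 8 or more hepatic and yolk sac markers, a selection chosen after seeing the data, 408 genes were lower at 24 against 21 somites, against 692. Of 20 landmark genes, 8 had a higher share of cells at 24 than at 15 somites with a limit of 50 CPM, against 5 with that of 10 CPM. No paired analysis was possible because the numbers in the labels name cells and each stage is 1 pool. Depth limits single cells most: 28 of 167 had under 100000 reads.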
